A study of Komagataella phaffii GS115 with 3 samples.

Results

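Transcript levels of 5 genes of methanol oxidation and formaldehyde dissimilation were followed across 3 RNA-seq libraries of the methylotrophic yeast Komagataella phaffii GS115, formerly Pichia pastoris, a histidine auxotroph used as an expression host. The 5 genes were chosen by locus tag, out of 5040 measured. They are the alcohol oxidase genes AOX1 (PAS_chr4_0821) and AOX2 (PAS_chr4_0152), the formaldehyde dehydrogenase gene FLD1 (PAS_chr3_1028), the S-formylglutathione hydrolase gene FGH1 (PAS_chr3_0867) and the formate dehydrogenase gene FDH1 (PAS_chr3_0932). These names come with the rule that chose the genes. The deposited files and the RefSeq gene table pair no locus tag with a name.

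The groups were an hmt-deficient GS115 strain in regular culture, GS115 treated with hydrogen peroxide (H2O2), and GS115 in regular culture without H2O2, called untreated here. Each group holds 1 library, so differences could not be set against replicate cultures and p-values were not computed. The labels do not state the carbon source of the cultures, the H2O2 dose or its duration. They also do not say which locus tag hmt is, and the loss of its transcript was not checked.

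In methylotrophic yeasts methanol enters the peroxisome, where alcohol oxidase turns it into formaldehyde and releases hydrogen peroxide. Formaldehyde is then either built into sugars or burned. On the burning, or dissimilatory, route formaldehyde joins with glutathione and is oxidised by formaldehyde dehydrogenase to S-formylglutathione. S-formylglutathione hydrolase splits off formate, and formate dehydrogenase oxidises formate to carbon dioxide, so that formaldehyde is disposed of and NADH is gained. AOX1 is known for being nearly silent on glucose and among the most abundant transcripts on methanol, and AOX2 codes for a nearly identical, less expressed oxidase.

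Levels are given as FPKM, which counts fragments per kilobase of a gene relative to all fragments of its library and so corrects for length and depth. The fragment totals, recovered from the values, were 18281723 in the hmt-deficient, 22354440 in the H2O2-treated and 15358148 in the untreated library, and the median gene stood at 68.3, 51.1 and 69.8 FPKM in those libraries. The sum of recovered fragments across genes was 102%, 103% and 99.3% of these totals in the same order. The fitted totals cancel out of these percentages, which therefore do not check the fit. The lengths, or the totals that the authors counted over genes, may differ from those used here. The 5 genes were backed by 281 to 201814 fragments each. Intervals in parentheses are exact 95% counting intervals from these fragments and cover counting error only. FPKM cannot tell apart fewer cells that express a gene from less RNA of it per cell.

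AOX1, coding for the main alcohol oxidase, stood at 68.7 FPKM in the hmt-deficient, 6.58 FPKM in the H2O2-treated and 285 FPKM in the untreated library. It was highest in untreated GS115 and near the bottom of the library after H2O2. Its rank among 5040 genes was 2503 in the hmt-deficient, 4860 in the H2O2-treated and 638 in the untreated library. In the hmt-deficient strain AOX1 therefore lay at the level of the median gene (1.00 times), against 4.08 times the median in untreated GS115.

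AOX2, coding for the second alcohol oxidase, stood at 80.4 FPKM in the hmt-deficient, 23.2 FPKM in the H2O2-treated and 134 FPKM in the untreated library. The order of the libraries was that of AOX1, over a narrower range. AOX2 ranked 2185, 3884 and 1376 in the same order.

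FLD1, coding for the glutathione-dependent formaldehyde dehydrogenase, stood at 2016 FPKM in the hmt-deficient, 254 FPKM in the H2O2-treated and 1448 FPKM in the untreated library. It was an abundant transcript in each culture, at rank 48, 654 and 123. After H2O2 it was the highest of the 5 genes and still 4.97 times the median gene.

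FGH1, coding for the hydrolase that frees formate, stood at 620 FPKM in the hmt-deficient, 132 FPKM in the H2O2-treated and 440.5 FPKM in the untreated library. Its ranks were 288, 1209 and 437. The library order was the same as for FLD1, the gene of the step before it.

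FDH1, coding for the enzyme of the last step, stood at 10054 FPKM in the hmt-deficient, 11.4 FPKM in the H2O2-treated and 1731 FPKM in the untreated library. It ranked 2 of 5040 in the hmt-deficient strain, behind PAS_chr4_0065 at 14333 FPKM, then 4651 after H2O2 and 101 in untreated GS115. In the hmt-deficient strain FDH1 made up 1.07% of the summed FPKM of all genes, against 0.170% in untreated GS115. No other gene of the 5 spanned such a range.

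**Figure D1:**
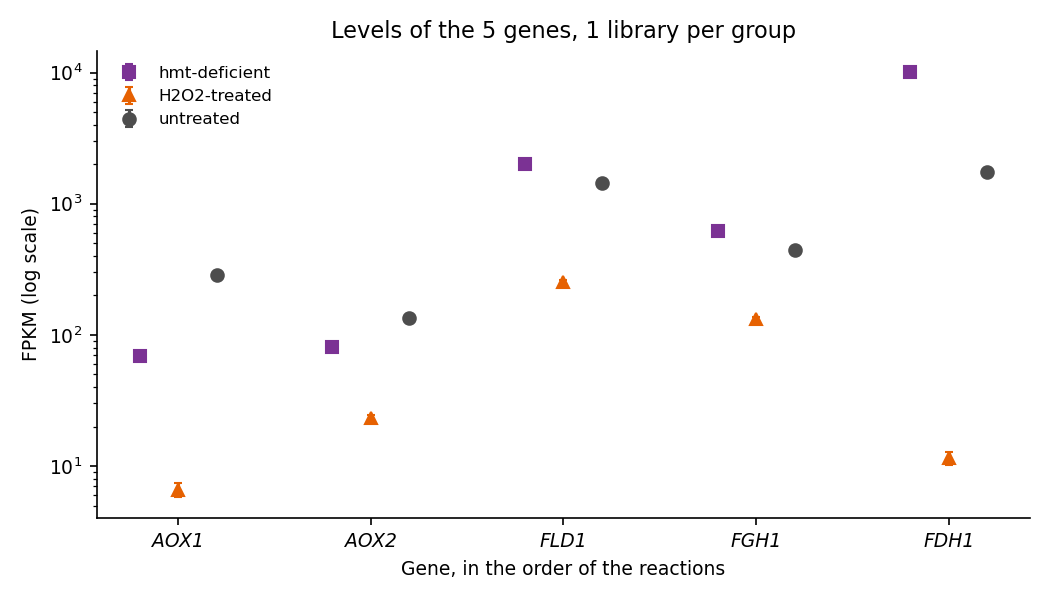
FPKM on a log axis of each of the 5 genes, ordered by reaction, in the hmt-deficient (squares), H2O2-treated (triangles) and untreated (circles) library; bars are 95% counting intervals, most of them smaller than the symbols. All 5 triangles are the lowest of their gene, FDH1 stands at 10054 FPKM in the hmt-deficient and at 11.4 FPKM in the H2O2-treated library, and for AOX1 and AOX2 the untreated library is the highest.

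The order of the 5 genes within a library differed between cultures. From high to low it was FDH1, FLD1, FGH1, AOX2 and AOX1 in the hmt-deficient strain. It was FLD1, FGH1, AOX2, FDH1 and AOX1 after H2O2. It was FDH1, FLD1, FGH1, AOX1 and AOX2 in untreated GS115. The closest neighbours in these orders still differed beyond counting error: AOX2 exceeded AOX1 by 1.17 times (1.11 to 1.24) in the hmt-deficient strain. FDH1 exceeded AOX1 by 1.74 times (1.47 to 2.06) after H2O2. In untreated GS115 FDH1 exceeded FLD1 by 1.20 times (1.18 to 1.22), and FGH1 exceeded AOX1 by 1.55 times (1.50 to 1.60). These intervals leave out the spread between separate cultures, which is unknown here.

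**Figure D2:**
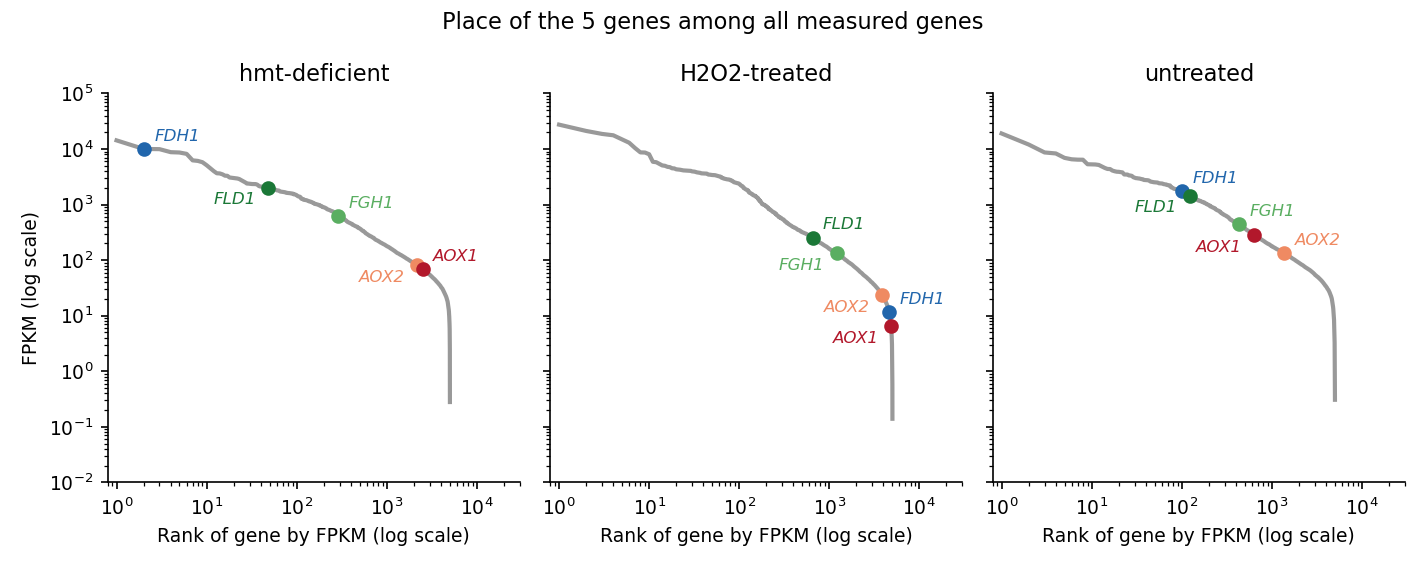
FPKM of all genes against their rank in each library, both on log axes, with the 5 genes as labelled points on the curve of all genes (grey; genes at 0 are not drawn). FDH1 sits at rank 2 in the hmt-deficient, 4651 in the H2O2-treated and 101 in the untreated library, while FLD1 is in the upper part of each curve.

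The balance of the alcohol oxidase genes was reversed in both non-control libraries. AOX1 stood at 0.854 times the level of AOX2 (0.809 to 0.901) in the hmt-deficient strain, at 0.284 times (0.249 to 0.324) after H2O2 and at 2.13 times (2.05 to 2.21) in untreated GS115. Both genes are 1992 bp long in the reference table. How the authors' counting treated reads that fit both genes is not stated in the labels, so the split between them is uncertain, and so is their sum if such reads were dropped or counted more than once. Summed, they came to 149 FPKM in the hmt-deficient, 29.7 FPKM in the H2O2-treated and 418 FPKM in the untreated library.

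The middle steps kept a steadier balance in regular culture. FLD1 stood at 3.25 times FGH1 (3.18 to 3.32) in the hmt-deficient strain and at 3.29 times (3.20 to 3.38) in untreated GS115, with overlapping intervals. After H2O2 the ratio was 1.92 (1.84 to 2.01). The balance of the last step to the first dissimilatory step differed widely. FDH1 stood at 4.99 times FLD1 (4.94 to 5.04) in the hmt-deficient strain, at 0.0451 times (0.0398 to 0.0508) after H2O2 and at 1.20 times in untreated GS115.

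Summed, the 5 genes reached 12838 FPKM, or 1.37% of the library, in the hmt-deficient strain. They reached 427 FPKM (0.0399%) after H2O2 and 4038 FPKM (0.396%) in untreated GS115. FDH1 made up 78.3%, 2.68% and 42.9% of these sums in the same order. Without FDH1 the sum was 2784 FPKM in the hmt-deficient, 416 FPKM in the H2O2-treated and 2307 FPKM in the untreated library. The alcohol oxidase genes held 1.16% of the 5-gene sum in the hmt-deficient strain, 6.96% after H2O2 and 10.4% in untreated GS115.

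**Figure D3:**
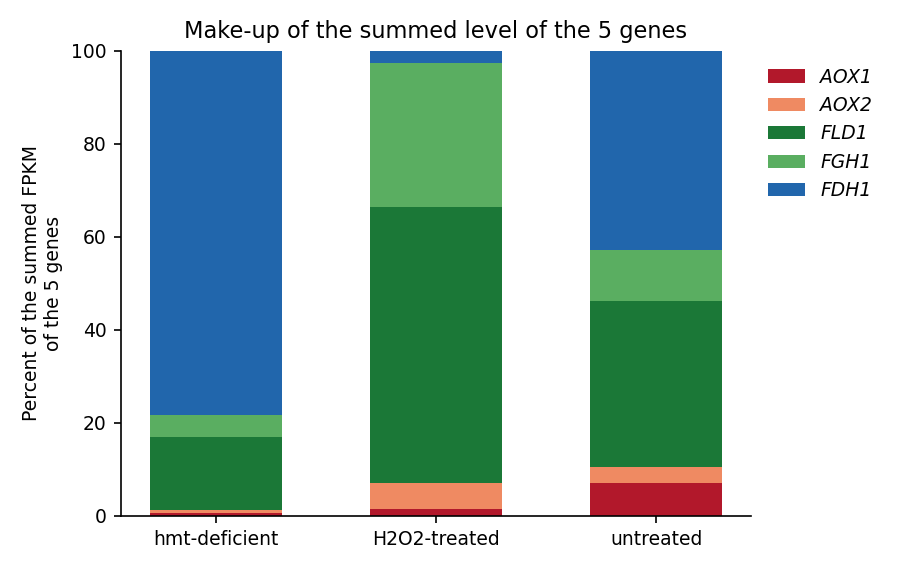
Percent of the summed FPKM of the 5 genes held by each gene, stacked to 100, for the hmt-deficient, H2O2-treated and untreated library. FDH1 holds 78.3%, 2.68% and 42.9%, and FLD1 holds 15.7%, 59.5% and 35.9% in the same order.

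The H2O2-treated library was set against the untreated one to ask which transcripts differ after exposure to the oxidant. All 5 genes stood lower after H2O2 and all 5 were past 2-fold, counted on log2 ratios with 1 FPKM added to each value. Among the 4964 genes with at least 10 FPKM in either library, 25.8% were at least 2-fold lower. At 4-fold, 4 of the 5 were lower (AOX1, AOX2, FLD1 and FDH1), beside 6.89% of all genes. The median log2 ratio of the 5 genes was -2.51, beside -0.38 for all genes, and relative to that shift the 5 log2 ratios ran from -6.74 (FDH1) to -1.35 (FGH1). All 5 genes passed the minimum in each comparison, although AOX1 itself was below it after H2O2.

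FDH1 differed most, 151-fold lower (134 to 171) at 11.4 FPKM in the H2O2-treated against 1731 FPKM in the untreated library. This was the 4th lowest log2 ratio of the 4964 genes. Of the 101 genes at or above the level of FDH1 in untreated GS115, FDH1 included, 2 stood at or below its level after H2O2; the other, PAS_chr3_0440, is named after its values were seen. AOX1 was 43.3-fold lower (38.5 to 48.8), at rank 28 from the lowest ratio. Of the 638 genes at or above its untreated level, 8 with AOX1 itself stood at or below its level after H2O2.

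The remaining genes differed less. AOX2 was 5.77-fold lower (5.39 to 6.19) and FLD1 5.70-fold lower (5.55 to 5.85), with overlapping intervals. FGH1 was 3.33-fold lower (3.19 to 3.49), and 9.43% of all genes had a lower ratio than it. AOX1 and FDH1, at the first and the last step, thus stood further from their untreated level than FLD1 and FGH1, the genes of the middle steps. AOX2 stood further than FGH1 and level with FLD1. The alcohol oxidase genes summed were 14.1-fold lower.

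The hmt-deficient strain was set against untreated GS115, with which the H2O2 comparison shares its control library. Here the 5 genes did not go one way. FDH1 was past 2-fold higher, AOX1 was past 2-fold lower, and AOX2, FLD1 and FGH1 were within 2-fold. Of 4992 genes, 11.1% were higher by 2-fold or more, 11.0% were lower by as much, and 22.1% were past 2-fold in either direction. At 4-fold the same 2 of the 5 genes were past the threshold, beside 5.33% of all genes. AOX1 was close to it, and under 7 of 8 other scalings and pseudocounts its log2 ratio was -1.97 to -1.84, short of 4-fold. The -1.84 came from the authors' normalized column, which has no untreated counterpart. The next value was -1.90, scaled without the 5 genes. The median log2 ratio of the 5 genes was 0.48, that of all genes -0.07.

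FDH1 was 5.81-fold higher (5.74 to 5.88), at 10054 FPKM in the hmt-deficient strain against 1731 FPKM in untreated GS115, and 2.18% of all genes had a higher ratio. AOX1 was 4.15-fold lower (3.97 to 4.34), at 68.7 against 285 FPKM, and 1.90% of all genes had a lower ratio. The genes at the ends of the route therefore lay on opposite sides, 4.57 apart on the log2 scale. AOX2 was 1.66-fold lower (1.58 to 1.74). FLD1 was 1.39-fold higher (1.37 to 1.41) and FGH1 1.41-fold higher (1.36 to 1.45), with overlapping intervals. Higher ratios than these middle genes were common: 23.4% of all genes exceeded FLD1 and 22.8% exceeded FGH1. The sum of the 5 genes was 3.18-fold higher, and without FDH1 it was 1.21-fold higher.

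The hmt-deficient strain was also set directly against H2O2-treated GS115, where strain and treatment differ together. Each log2 ratio here is the difference between the gene's log2 ratios in the comparisons to untreated GS115. The values below therefore restate those comparisons and add no separate evidence. All 5 genes were past 2-fold higher in the hmt-deficient strain, beside 23.0% of 4966 genes. Past 4-fold there were 4 of the 5, all but AOX2, beside 5.54% of all genes. FGH1 was short of 4-fold, leaving 3 of the 5, when ratios were centred on the median of all genes (1.88) or scaled by the trimmed mean of log ratios (1.87). FDH1 had the highest log2 ratio of all genes tested, 9.66. AOX1 was 10.4-fold higher (9.24 to 11.8), FLD1 7.93-fold (7.74 to 8.13), FGH1 4.69-fold (4.49 to 4.90) and AOX2 3.47-fold (3.23 to 3.73). The median log2 ratio was 2.98 for the 5 genes and 0.34 for all genes, and relative to that of all genes the 5 ran from 1.41 (AOX2) to 9.32 (FDH1). The sum of the 5 genes was 30.04-fold higher, and 6.69-fold higher without FDH1.

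**Figure D4:**
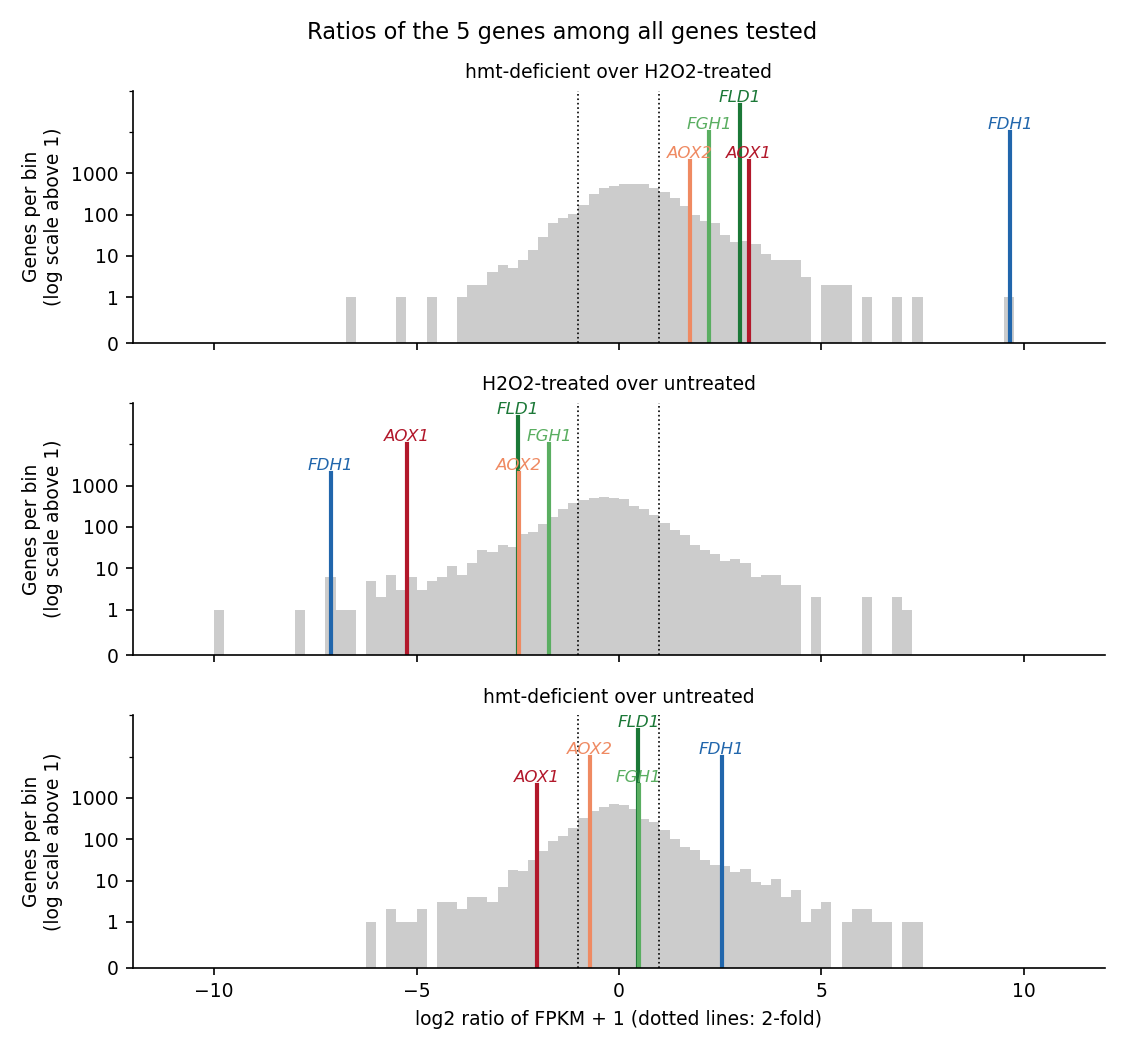
Number of genes per bin of 0.25 in the log2 ratio of FPKM plus 1 (grey, log scale above 1) for the hmt-deficient over the H2O2-treated, the H2O2-treated over the untreated and the hmt-deficient over the untreated library, with the 5 genes as coloured lines whose height has no meaning and 2-fold as dotted lines. The 5 genes lie above 2-fold in the top panel and below it in the middle panel, and in the bottom panel AOX1 (-2.04) and FDH1 (2.54) lie on opposite sides.

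Gene length moved with the ratios over all genes. In the hmt-deficient over untreated comparison the median log2 ratio was -0.39 for the shortest of 5 equal bins of length and 0.11 for the longest. It was -0.11 and 0.73 for the hmt-deficient over the H2O2-treated library, and -0.31 and -0.65 for the H2O2-treated over the untreated one. The 5 genes, 900 to 1992 bp long, fell in the 3 middle bins, whose medians in the hmt-deficient over untreated comparison were -0.11 (FGH1), -0.02 (FLD1 and FDH1) and -0.01 (AOX1 and AOX2). In the same order they were 0.11, 0.28 and 0.47 for the hmt-deficient over the H2O2-treated library. For the H2O2-treated over the untreated one they were -0.22, -0.25 and -0.43. The part of length in the values of the 5 genes was not tested.

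The genes whose pair of log2 ratios to untreated GS115 came nearest to that of each of the 5 were sought among 4993 other genes, by the larger of the 2 differences. Each pair rests on 3 libraries and shares its denominator, so likeness here is a description. For AOX1 the nearest was PAS_chr4_0627, within 0.08, at 4519 FPKM in the hmt-deficient, 479 FPKM in the H2O2-treated and 19082 FPKM in the untreated library, where it was the highest of all genes. The next 4 for AOX1 were PAS_chr4_0540, PAS_chr1-3_0250, PAS_chr2-1_0649 and PAS_chr2-1_0192, at 0.32 to 0.43. In all, 21 genes lay within 1 log2 unit of AOX1.

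AOX2 was nearest to PAS_chr4_0997 (0.06) and FLD1 to PAS_chr1-3_0058 (0.03). FGH1 was nearest to PAS_chr3_0099 (0.04), which stood at 243 FPKM in the hmt-deficient, 48.9 FPKM in the H2O2-treated and 169 FPKM in the untreated library. Patterns like these were common, with 430 genes within 1 log2 unit of AOX2, 218 of FLD1 and 912 of FGH1. That of FDH1 was not: 0 of the 4993 genes came within 1 log2 unit of it. Its nearest, PAS_chr1-1_0118, was 2.51 away, at 3022 FPKM in the hmt-deficient, 80.7 FPKM in the H2O2-treated and 2959 FPKM in the untreated library. Among the 5 genes themselves, FLD1 and FGH1 were the closest pair, 0.78 apart, and AOX1 and AOX2 were 2.76 apart.

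The genes lie on 2 chromosomes, AOX1 and AOX2 on chromosome 4 and FLD1, FGH1 and FDH1 on chromosome 3, and 0 of them overlaps another gene of the reference table. The 3 listed genes on either side of each were read as well, 30 in all. In the H2O2-treated over untreated comparison 29 of these passed the minimum; 5 were lower by 2-fold or more (25.8% of all genes were) and 4 were higher by as much (8.88% of all genes), with a median log2 ratio of -0.15. In the hmt-deficient over untreated comparison all 30 passed; 8 were higher past 2-fold (11.1% of all genes were) and 2 were lower (11.0%), with a median of 0.53 beside -0.07 for all genes. Lower after H2O2 were PAS_chr4_0824, PAS_chr3_1026, PAS_chr3_1029, PAS_chr3_0868 and PAS_chr3_0934, and higher were PAS_chr4_0819, PAS_chr4_0151, PAS_chr4_0153 and PAS_chr3_0931. The higher ones in the hmt-deficient strain were PAS_chr4_0824, PAS_chr4_0151, PAS_chr4_0153, PAS_chr3_0864, PAS_chr3_0868, PAS_chr3_0930, PAS_chr3_0931 and PAS_chr3_0933, and the lower ones were PAS_chr3_1030 and PAS_chr3_0934. Among the 10 genes directly beside the 5, the lowest log2 ratio after H2O2 was -1.94 (PAS_chr3_1029), against -7.12 for FDH1 and -5.24 for AOX1.

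On the sides of AOX1, PAS_chr4_0820 stood at 79.7 FPKM in the hmt-deficient, 35.3 FPKM in the H2O2-treated and 41.6 FPKM in the untreated library. PAS_chr4_0823 stood at 63.0, 80.2 and 49.1 FPKM in the same order. Both were thus higher in the hmt-deficient strain than in untreated GS115, opposite to AOX1. Beside AOX2, PAS_chr4_0151 stood at 2072 FPKM in the hmt-deficient, 3632 FPKM in the H2O2-treated and 467 FPKM in the untreated library, opposite to AOX2 in both. On its other side PAS_chr4_0153 stood at 827, 267 and 130.8 FPKM in the same order.

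Beside FDH1, PAS_chr3_0931 stood at 471 FPKM in the hmt-deficient, 367 FPKM in the H2O2-treated and 109 FPKM in the untreated library. It was higher with FDH1 in the hmt-deficient strain and opposite to it after H2O2. PAS_chr3_1241, on the other side, had log2 ratios of -0.26 in the hmt-deficient strain and -0.47 after H2O2, both against untreated GS115. Beside FLD1, PAS_chr3_1029 was lower after H2O2 with FLD1, at 11.8 FPKM in the H2O2-treated against 48.4 FPKM in the untreated library. On the other side of FLD1, PAS_chr3_1027 had a log2 ratio of -0.22 after H2O2. Directly beside FGH1, the log2 ratio after H2O2 was -0.74 for PAS_chr3_0866 and 0.98, opposite to FGH1, for PAS_chr3_1231. Further from FGH1, at place 3, PAS_chr3_0868 stood at 1735 FPKM in the hmt-deficient, 110 FPKM in the H2O2-treated and 353 FPKM in the untreated library. It followed the order of FGH1 with a larger difference in the hmt-deficient strain (log2 ratio 2.30, against 0.49 for FGH1).

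**Figure D5:**
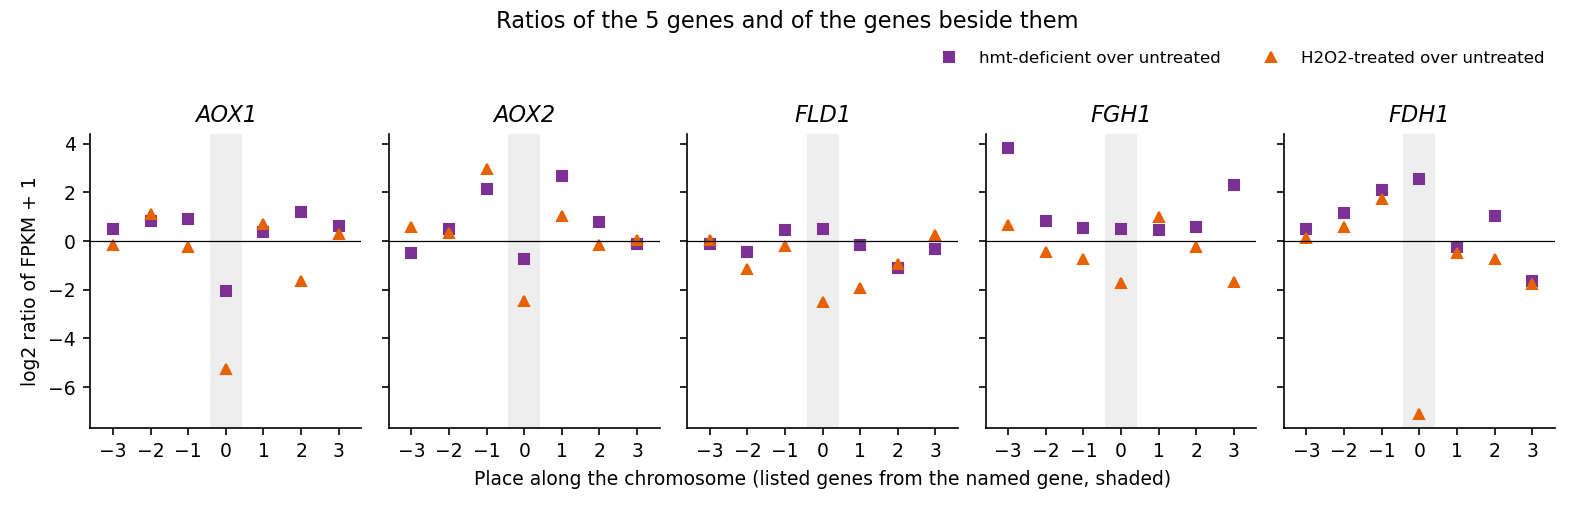
Log2 ratio of FPKM plus 1 for each of the 5 genes (shaded, place 0) and the 3 listed genes on either side, for the hmt-deficient (squares) and the H2O2-treated (triangles) library, each over the untreated one. FDH1 at -7.12 and AOX1 at -5.24 after H2O2 stand below every gene drawn beside them.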

How the data were processed

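Total RNA of 3 yeast cultures was depleted of ribosomal RNA and sequenced as stranded paired-end libraries, per the labels' protocols. The authors deposited 1 FPKM value per gene and library, so called per the file headers. Tools listed in the submitters' processing notes, without roles, are HISAT2, HTSeq, featureCounts, Trimmomatic 0.39 and FastQC 0.12.1. The genome build, the annotation and the handling of strand and of reads with several matches are not stated there.

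All 5040 locus tags matched RefSeq's gene table (assembly ASM2700v1), used for gene lengths and gene order only; its symbols repeat the tags. A list of 14 tags for other genes of the route and 4 lists by product words were drawn up, but 0 of the tags carry a name or product there, so other genes of the route are not described. The 5 genes, the lists and the settings were chosen with earlier results of these data known.

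FPKM times length gives whole fragments once the library total is fitted. Among genes with a length divisible by 3 and under 3000 fragments, 90.5% of 2453 in the hmt-deficient, 76.4% of 2000 in the H2O2-treated and 96.8% of 3557 in the untreated library came within 0.1 of a whole number. In the untreated library AOX1, AOX2, FGH1 and FDH1 came out whole and FLD1 did not (27882.8), so the length the authors used for FLD1 may differ and its fragment counts are estimates; its FPKM is unaffected. Exact 95% intervals on ratios (binomial) and levels (Poisson) used these fragments. The fits were tested on simulated data built with the same reference lengths, so that test cannot show the effect of a differing length.

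Log2 ratios used a pseudocount of 1 FPKM, and genes with at least 10 FPKM in either library of a pair were compared. A fold in the text is the ratio of FPKM without a pseudocount. Named genes beside the 5 were, by rule, the 5 nearest in pattern to each and the 3 neighbours on either side, plus genes next in rank. PAS_chr3_0440 was named outside this rule, after its values were seen. The authors' normalized FPKM columns, deposited for 2 libraries, equal FPKM at all 5040 genes in the H2O2-treated library and are FPKM times 1.14 in the hmt-deficient one; they served as an alternative. Python 3.11.15, pandas 2.3.3, numpy 2.4.6 and scipy 1.17.1 were used.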

Additional observations from a re-analysis of the deposited data

How the results depend on the processing

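Of 35 alternative counts of genes past 2-fold, 31 equalled the count given. The other 4 came to 4: with a 4-fold threshold 4 of 5 genes passed, and with AOX1 and AOX2 summed all 4 features passed, each for the H2O2-treated over untreated and the hmt-deficient over H2O2-treated comparison. The other settings were also tried at 4-fold, after seeing the data, and AOX1 (hmt-deficient over untreated) and FGH1 (hmt-deficient over H2O2-treated) lost the 4-fold threshold as given above. No log2 ratio of the 5 genes and no median changed sign, in 115 and 23 alternative values. A pseudocount cannot change a sign, and each scaling shifts all genes of a comparison together. The kept signs are therefore not a separate check of each gene. The median log2 ratio of the 5 genes moved beyond its counting interval with most scalings, which shift all genes together by construction. For the hmt-deficient over H2O2-treated comparison it was 2.25 with a pseudocount of 10 FPKM, 3.18 as TPM, 2.64 centred on the median of all genes, 3.07 scaled without the 20 highest genes, 3.20 scaled without the 5 genes, 2.63 with the trimmed mean of log ratios and 3.18 with the authors' normalized columns, an alternative chosen after seeing the data. For this pair the authors' columns bring both libraries to about the same summed FPKM, as TPM does. They are therefore not a separate alternative to TPM here. For the H2O2-treated over untreated comparison it was -2.46 with a pseudocount of 10 FPKM, -2.58 as TPM, -2.12 centred, -2.58 scaled without the 5 genes and -2.11 with the trimmed mean. For the hmt-deficient over untreated comparison it was 0.60 as TPM, 0.54 centred, 0.58 without the 20 highest genes, 0.61 without the 5 genes, 0.54 with the trimmed mean and 0.67 with the authors' normalized column, which has no untreated counterpart. With a pseudocount of 10 FPKM the log2 ratio of AOX1 after H2O2 was -4.15 and that of FDH1 -6.34. No paired analysis was possible because each group holds 1 library, and no library could be left out for the same reason.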
